A study of Mus musculus with 26 samples.

Results

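The genes described here are those of the integrated stress response and of amino acid supply. They were the rows of 41 gene symbols fixed by name, among the 25239 genes of the deposited count table. No threshold on a measured value chose them, but the list was drawn up with earlier results of these data known. Sorted by role, 16 are stress regulators, 7 are serine and one-carbon enzymes, 9 are other amino acid enzymes with the tRNA exporter Xpot, and 9 are amino acid transporters. All 41 were listed in the count table and in the untreated, BMP4 and LDN193189 tables, and 39 were listed in the activin A table (all but Aldh1l2 and Slc7a11) and in the SB431542 table (all but Vldlr and Slc7a11).

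In the integrated stress response, kinases such as PERK (Eif2ak3) and GCN2 (Eif2ak4) phosphorylate the initiation factor eIF2, which lowers general protein synthesis and raises translation of the transcription factor ATF4. ATF4, with partners of the C/EBP family, then turns on genes that make or import amino acids, that charge tRNAs and that feed serine into one-carbon metabolism. Mouse embryonic stem cells are known for a high demand on these supplies, and ATF4 itself is controlled mainly at translation, which RNA levels do not show.

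RNA was sequenced from mouse embryonic stem cells, labelled as strain C57BL/6 and grown in serum medium on gelatin. The cells were either knocked out for Hmces (HMCES-KO), which encodes a protein that binds abasic sites in DNA, or wild type (WT). The study asked how HMCES acts on the transcription driven by Nodal/activin and BMP signalling. The count table held 2 libraries each of the untreated knockout lines KO7 and KO8 and of untreated WT cells. A separate table of TPM (a level per gene length that sums to the same total in each library) held 2 untreated HMCES-KO libraries and 2 untreated WT libraries. The HMCES-KO columns of that table are named K81 and K82, a name that may stand for KO8, though the sources used here do not say so. Each of 4 further TPM tables held 1 library of each of the lines labelled KO1 and KO2 and 2 WT libraries after 2 h of treatment. The treatments were 50 ng/ml activin A, which activates the receptors of Nodal and activin, 10 µM SB431542, which blocks them, 10 ng/ml BMP4, or 50 nM LDN193189, which blocks the receptors of BMP. The title of the count table lists KO1 before KO2 and its columns list KO7 before KO8, an order that may match the lines in turn. The sources used here do not say which of KO7 and KO8 is KO1, so each line keeps the name of its table. Nor do they say whether a line is 1 clone.

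Total counts per library ran from 9571113 to 13512922 in the count table. TPM keeps no depth, and the depth of the treated libraries was not recovered here. Hmces RNA stood at 38.1% and 38.8% of the WT mean in KO7, at 26.5% and 24.9% in KO8 and at 21.2% and 22.1% in the untreated HMCES-KO libraries with TPM. In the treated tables it stood at 51.7% to 64.1% in KO1 and at 25.03% to 34.04% in KO2. The summed TPM of 9 embryonic stem cell markers lay within 14279.8 to 14552 in the HMCES-KO libraries and 14788 to 14963 in the WT libraries of the count table. In the count table that sum was lower in HMCES-KO without overlap, and so were the endoderm and fibroblast sums. The neuroectoderm sum was higher there and the trophectoderm sum overlapped. In each other table the stem cell sum overlapped or was higher in HMCES-KO, as given below. The sum of 11 endoderm markers was 71.97 to 92.6 TPM in HMCES-KO and 187 to 203 TPM in WT. The sum of 7 fibroblast markers was 17.5 to 26.5 TPM in HMCES-KO and 62.7 to 62.8 TPM in WT, with Col1a2, Col3a1, Postn and Lum under 1 TPM. The sum of 8 trophectoderm markers was 68.7 to 168 TPM in HMCES-KO and 83.2 to 83.7 TPM in WT, with Elf5 and Gata3 under 1 TPM. The sum of 6 neuroectoderm markers was 265 to 380.2 TPM in HMCES-KO and 175 to 191 TPM in WT, with Neurog2 under 1 TPM. Their part in the differences below was not tested, and in bulk RNA fewer cells of a type and less RNA per cell cannot be told apart.

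Many members are known to carry, near their start, a composite element that ATF4 binds with a C/EBP partner. The letters TGATGNAA were searched on both strands in windows of 250 bases before to 50 bases after each annotated start, taken from RefSeq on GRCm38.p6. Windows were matched for 35 of the 41 members, and 10 of these 35 (28.6%) held the letters, against 4.51% of 27025 genes. The 10 were Slc7a11, with 2 matches, and Asns, Chac1, Got1, Nupr1, Pck2, Pycr1, Slc1a4, Trib3 and Vldlr. None of the 6 matched serine and one-carbon enzymes held them in this window, against 4 of 15 stress regulators, 4 of 8 other enzymes and 2 of 6 transporters. A match is a description of letters and not a site shown to be bound. The 5 windows shown first below belong to the members with a match that were called higher in the BMP4 and LDN193189 tables in both genotypes, and that of Asns is shown because Asns had the lowest adjusted p of all members in untreated KO8. Each window is printed from 5′ to 3′ on the strand of its gene, with the match, or its reverse complement TTNCATCA, in capitals.
Chac1 promoter (chr2:119350992-119351291, plus strand): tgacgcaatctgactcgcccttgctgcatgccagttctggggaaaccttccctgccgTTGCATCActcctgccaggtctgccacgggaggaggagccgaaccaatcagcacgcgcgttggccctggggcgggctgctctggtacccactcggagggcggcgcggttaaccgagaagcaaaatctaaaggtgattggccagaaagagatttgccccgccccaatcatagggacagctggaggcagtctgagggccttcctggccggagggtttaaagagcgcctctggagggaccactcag
Trib3 promoter (chr2:152344011-152344310, minus strand): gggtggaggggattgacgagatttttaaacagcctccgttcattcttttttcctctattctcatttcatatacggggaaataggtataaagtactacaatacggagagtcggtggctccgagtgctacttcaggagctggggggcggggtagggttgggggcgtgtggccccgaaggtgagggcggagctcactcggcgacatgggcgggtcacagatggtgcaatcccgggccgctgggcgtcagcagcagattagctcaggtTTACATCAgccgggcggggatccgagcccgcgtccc
Nupr1 promoter (chr7:126625421-126625720, minus strand): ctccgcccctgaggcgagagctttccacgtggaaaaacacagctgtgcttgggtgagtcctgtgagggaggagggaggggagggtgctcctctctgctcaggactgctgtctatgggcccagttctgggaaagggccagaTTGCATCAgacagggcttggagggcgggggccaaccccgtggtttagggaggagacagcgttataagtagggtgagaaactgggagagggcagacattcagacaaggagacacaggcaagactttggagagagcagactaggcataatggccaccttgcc
Slc1a4 promoter (chr11:20332664-20332963, minus strand): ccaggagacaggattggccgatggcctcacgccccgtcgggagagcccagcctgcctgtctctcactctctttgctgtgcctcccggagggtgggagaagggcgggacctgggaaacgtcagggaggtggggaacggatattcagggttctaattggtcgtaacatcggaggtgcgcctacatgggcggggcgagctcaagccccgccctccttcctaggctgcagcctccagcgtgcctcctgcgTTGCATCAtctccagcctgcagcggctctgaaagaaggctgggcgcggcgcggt
Pck2 promoter (chr14:55540016-55540315, plus strand): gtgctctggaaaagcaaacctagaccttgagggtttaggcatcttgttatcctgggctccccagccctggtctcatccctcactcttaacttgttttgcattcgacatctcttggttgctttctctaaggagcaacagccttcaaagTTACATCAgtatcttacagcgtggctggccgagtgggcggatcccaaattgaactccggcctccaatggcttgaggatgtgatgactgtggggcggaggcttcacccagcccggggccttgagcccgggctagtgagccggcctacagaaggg
Asns promoter (chr6:7693160-7693459, minus strand): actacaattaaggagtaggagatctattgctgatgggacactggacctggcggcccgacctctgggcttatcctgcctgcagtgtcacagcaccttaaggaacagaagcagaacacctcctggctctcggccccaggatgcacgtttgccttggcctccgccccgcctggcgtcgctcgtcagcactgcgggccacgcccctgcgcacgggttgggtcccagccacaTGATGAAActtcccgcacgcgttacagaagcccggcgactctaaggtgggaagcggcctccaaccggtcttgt

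Levels of the members in untreated WT cells differed widely between genes. Per length, computed from the counts, Atf4 was highest at 1083 TPM, followed by the translation repressor Eif4ebp1 at 773 TPM, the large neutral amino acid transporter Slc7a5 at 587 TPM and the serine synthesis enzyme Psat1 at 541 TPM (mean of 2 libraries each). The lowest were the cystine transporter Slc7a11 at 0.496 TPM, the lipoprotein receptor Vldlr at 1.79 TPM and the mitochondrial folate enzyme Aldh1l2 at 3.84 TPM. In the separate untreated TPM table Atf4 was again highest, at 1075 TPM, and Slc7a11 again lowest, at 0.529 TPM.

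In untreated cells the knockout lines differed in how much of the module was lower than in WT. A gene was called at a Benjamini-Hochberg adjusted p under 0.05 over all 13475 genes tested with edgeR's quasi-likelihood test. In KO8, 28 of 41 members were lower and 2 were higher than in WT, where 19.7% and 19.3% of all genes were called lower and higher. In KO7, 16 members were lower and 9 were higher, where 19.2% and 19% of all genes were called lower and higher. The median log2 fold change of the members was -0.54 in KO8 and -0.14 in KO7, against -0.01 and -0.00 over all genes tested. Both lines were set against the same WT libraries, which differed from each other. The other amino acid enzymes and Xpot were all higher in WT replicate 1, as for Asns (371 and 325 CPM). So were the serine and one-carbon enzymes but Phgdh. Stress regulators and transporters went both ways. The part of this in the differences was not tested. In KO7, 25 members were called in all, which became 16 without its replicate 1 and 19 to 32 with any other library of the table left out.

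**Figure D1:**
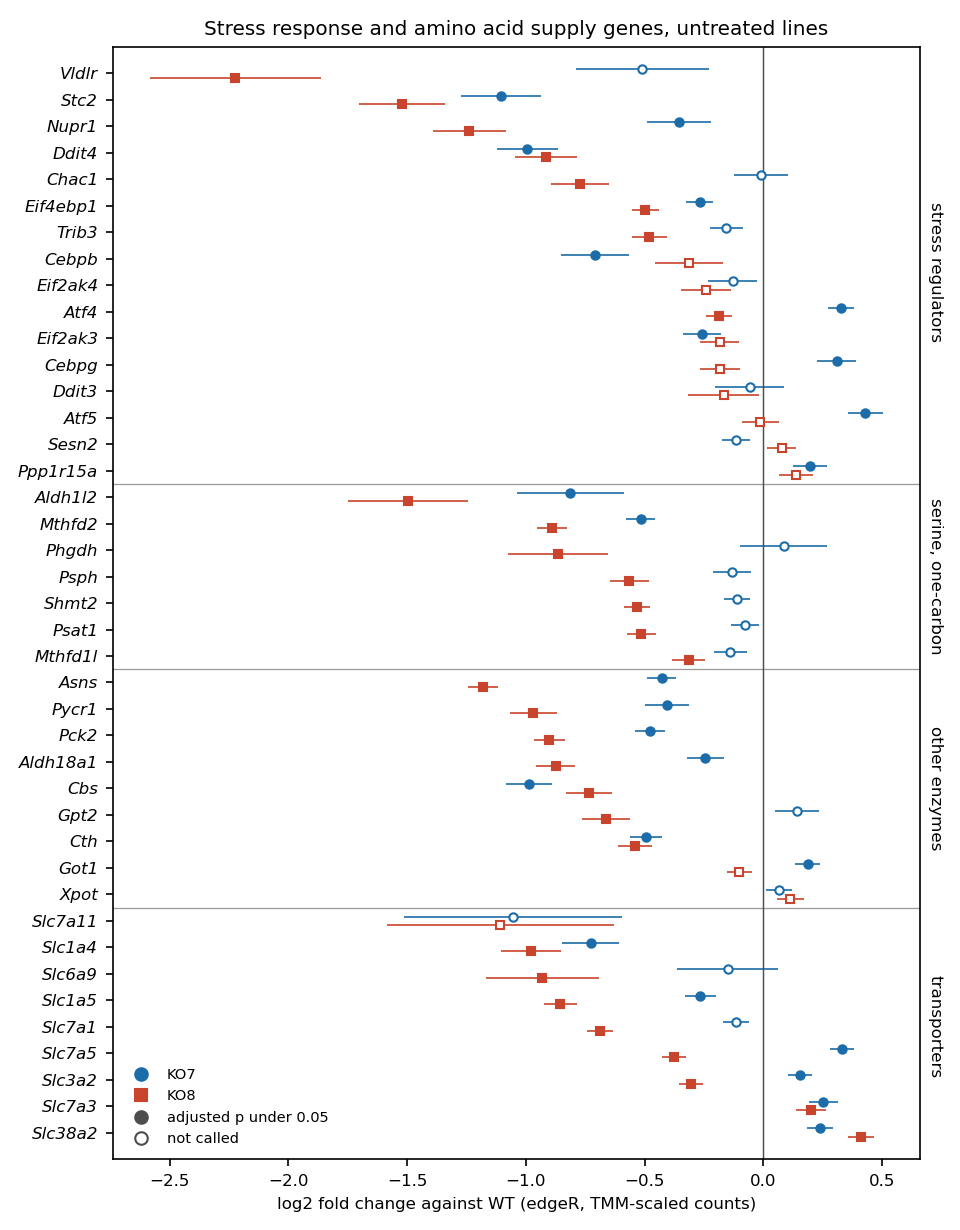
Log2 fold change of each member in KO7 (circles) and KO8 (squares) against WT in the untreated count table, by class, with the standard error of the fit as bars and filled symbols for an adjusted p under 0.05. The squares of KO8 lie left of 0 for all 7 serine and one-carbon enzymes, and each circle of KO7 in that class lies nearer to 0 than its square.

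Set against each other, KO8 was lower than KO7 for 24 members and higher for 2, where 14.3% of all genes were called lower and 13.9% higher. The median difference of the members was -0.42 on the log2 scale, against -0.00 over all genes. Averaged over both lines, 27 members were lower and 4 higher than in WT, where 20.8% of all genes were called lower and 19.9% higher. That average count was 9 when the 4 HMCES-KO libraries were fitted as 1 group, whose spread then includes the difference between lines and where 11.5% of all genes were called, against 40.6%. KO8 also had less Hmces RNA than KO7, as given above, and the part of that in the difference was not tested.

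The serine and one-carbon enzymes were the class in which every measured member was lower in KO8. Serine is made from a glycolytic intermediate by Phgdh, Psat1 and Psph, and Shmt2, Mthfd2, Mthfd1l and Aldh1l2 pass its carbon through mitochondrial folate. All 7 were called lower in KO8, and 2 (Mthfd2 and Aldh1l2) were called lower in KO7, where 19.7% and 19.2% of all genes were called lower. Mthfd2 had 189.9 and 203 CPM in KO7 and 144 and 158 CPM in KO8, against 289 and 272 CPM in WT, a log2 fold change of -0.52 ± 0.06 in KO7 (adjusted p = 1.73e-06) and -0.89 ± 0.06 in KO8 (adjusted p = 1.54e-09). All 4 HMCES-KO libraries were below both WT libraries, and KO8 lay below KO7. Aldh1l2 had 4.46 and 5.04 CPM in KO7 and 3.79 and 2.13 CPM in KO8, against 8.52 and 8.05 CPM in WT, with fold changes of -0.81 ± 0.23 (adjusted p = 0.00733) and -1.496 ± 0.25 (adjusted p = 0.000106) at these low levels. Its groups did not overlap, and the call in KO7 was lost with DESeq2 and without KO7 replicate 1.

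Phgdh, the entry enzyme of serine synthesis (chr3:98313171-98339969), had 9.97 and 11.4 CPM in KO7 and 5.05 and 5.92 CPM in KO8, against 8.36 and 11.9 CPM in WT. Its KO8 libraries were below all others, with -0.86 ± 0.21 against WT (adjusted p = 0.00274) and -0.95 ± 0.21 against KO7 (adjusted p = 0.00151), while KO7 overlapped WT at 0.08 ± 0.18. Phgdh is uncertain in all tables, since 20 annotated pseudogenes match its transcripts at 90% identity or more over at least 300 bases. The other members of the class ran from -0.32 ± 0.07 (Mthfd1l) to -0.56 ± 0.08 (Psph) in KO8, and none of the 4 (Psat1, Psph, Shmt2 and Mthfd1l) was called in KO7, where they lay between -0.14 and -0.08. Psat1 has 1 such pseudogene, and Psph and Aldh1l2 share exon sequence with the neighbouring genes Cct6a and D10Wsu102e, where counting without strand cannot separate them.

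Among the other amino acid enzymes, 7 of 9 were lower in KO8 and 6 in KO7, where 19.7% and 19.2% of all genes were called lower. Asns, which makes asparagine (chr6:7675165-7693209), had 258 and 259.6 CPM in KO7 and 154 and 153 CPM in KO8, against 371 and 325 CPM in WT. These are log2 fold changes of -0.43 ± 0.06 in KO7 (adjusted p = 1.53e-05) and -1.18 ± 0.06 in KO8 (adjusted p = 2.2e-11), and KO8 was -0.75 ± 0.06 below KO7. All 3 groups were apart, with KO8 lowest and WT highest.

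Proline is made from glutamate through Aldh18a1 and Pycr1. Aldh18a1 had 110.03 and 121 CPM in KO7 and 75.6 and 73.7 CPM in KO8, against 149 and 124 CPM in WT, with -0.25 ± 0.08 in KO7 (adjusted p = 0.0168) and -0.88 ± 0.08 in KO8 (adjusted p = 7.74e-08). Pycr1 had 59.1 and 60.6 CPM in KO7 and 42.5 and 38.6 CPM in KO8, against 87.9 and 70.1 CPM in WT, with -0.41 ± 0.09 (adjusted p = 0.00166) and -0.97 ± 0.10 (adjusted p = 2.36e-07). Both were below WT in all 4 HMCES-KO libraries, with KO8 below KO7. The KO7 call of Aldh18a1 was lost with DESeq2 and without WT replicate 1 or KO7 replicate 1. Pck2, which makes phosphoenolpyruvate in mitochondria, had 112 and 116 CPM in KO7 and 83.7 and 86.01 CPM in KO8, against 165 and 152 CPM in WT, with -0.48 ± 0.06 (adjusted p = 6.85e-06) and -0.90 ± 0.07 (adjusted p = 2.7e-09). It held the same order of the 3 groups.

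Cbs and Cth, the enzymes that turn homocysteine into cysteine, fell in both lines. Cbs (chr17:31612623-31637205) had 29.8 and 36.7 CPM in KO7 and 38.96 and 39.7 CPM in KO8, against 67.9 and 62.8 CPM in WT, with -0.99 ± 0.10 in KO7 (adjusted p = 1.66e-07) and -0.73 ± 0.10 in KO8 (adjusted p = 5.78e-06). Cth had 88.2 and 86.9 CPM in KO7 and 80.7 and 88.7 CPM in KO8, against 128 and 119 CPM in WT, with -0.49 ± 0.07 (adjusted p = 1.25e-05) and -0.54 ± 0.07 (adjusted p = 5.14e-06). All HMCES-KO libraries of both genes were below WT. The difference of KO8 from KO7 was 0.25 ± 0.10 for Cbs (adjusted p = 0.0724) and -0.05 ± 0.07 for Cth (adjusted p = 0.675), neither of which passed the test.

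The last 3 of this class behaved otherwise. Gpt2, a mitochondrial alanine transaminase (chr8:85492576-85528902), had 97.5 and 107 CPM in KO7 and 57.6 and 59.4 CPM in KO8, against 105 and 79.4 CPM in WT. It was lower in KO8 at -0.66 ± 0.10 (adjusted p = 3.18e-05), below every other library, while KO7 overlapped WT, and 1 pseudogene matches its transcripts. Got1, the cytosolic aspartate transaminase, had 355 and 361 CPM in KO7 and 289 and 298 CPM in KO8, against 319.8 and 309 CPM in WT and was called higher in KO7 at 0.19 ± 0.05 (adjusted p = 0.00853). That call was lost without either KO7 library. Xpot, which exports tRNAs from the nucleus, was at 0.06 ± 0.06 in KO7 and 0.11 ± 0.06 in KO8, neither called.

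Of the 9 transporters, 6 were lower and 2 higher in KO8, and 2 were lower and 4 higher in KO7. Of all genes, 19.7% and 19.3% were called lower and higher in KO8, and 19.2% and 19% in KO7. The neutral amino acid transporters Slc1a4 and Slc1a5 were lower in both lines. Slc1a4 had 31.9 and 35.8 CPM in KO7 and 28.01 and 28.5 CPM in KO8, against 64.8 and 46.1 CPM in WT, with -0.73 ± 0.12 (adjusted p = 8.68e-05) and -0.98 ± 0.13 (adjusted p = 4.71e-06). Slc1a5 had 166 and 165 CPM in KO7 and 111 and 109 CPM in KO8, against 213 and 184 CPM in WT, with -0.27 ± 0.07 (adjusted p = 0.00334) and -0.86 ± 0.07 (adjusted p = 1.04e-08). No HMCES-KO library of these genes reached a WT level, though the WT libraries of Slc1a4 differed from each other more than the knockout lines did.

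Slc7a5 and Slc3a2, whose products join into the transporter of large neutral amino acids, moved in opposite directions in the lines. Slc7a5 had 913 and 946 CPM in KO7 and 576 and 562 CPM in KO8, against 731 and 748 CPM in WT, with 0.33 ± 0.05 in KO7 (adjusted p = 3.09e-05) and -0.38 ± 0.05 in KO8 (adjusted p = 7.68e-06). Slc3a2 had 549 and 543 CPM in KO7 and 395 and 400.5 CPM in KO8, against 485 and 498 CPM in WT, with 0.15 ± 0.05 in KO7 (adjusted p = 0.0215) and -0.30 ± 0.05 in KO8 (adjusted p = 0.000103). KO7 lay above both WT libraries and KO8 below them. The KO7 call of Slc3a2 was lost without either KO7 library and with only the 4 libraries of KO7 and WT in the fit.

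Slc7a3, a transporter of arginine and lysine, and Slc38a2, a sodium-coupled transporter of small neutral amino acids, were the members called higher in both lines. Slc7a3 had 252 and 257 CPM in KO7 and 249 and 242 CPM in KO8, against 199 and 228 CPM in WT, with 0.25 ± 0.06 (adjusted p = 0.00322) and 0.20 ± 0.06 (adjusted p = 0.0152), and the calls were lost without KO7 replicate 2 in KO7 and without WT replicate 1 or either KO8 library in KO8. Slc38a2 had 322 and 332 CPM in KO7 and 366 and 371 CPM in KO8, against 269.6 and 285 CPM in WT, with 0.24 ± 0.05 (adjusted p = 0.0017) and 0.41 ± 0.05 (adjusted p = 6.13e-06). Every HMCES-KO library was above both WT libraries for both genes. The other cationic transporter, Slc7a1 (chr5:148327410-148399904), had 321 and 337 CPM in KO7 and 226 and 217 CPM in KO8, against 356 and 356 CPM in WT and was called lower only in KO8, at -0.69 ± 0.05 (adjusted p = 9.11e-09), against -0.12 ± 0.05 in KO7 (adjusted p = 0.0937). KO8 was -0.57 ± 0.05 below KO7 (adjusted p = 1.02e-07). The glycine transporter Slc6a9 was lower in KO8 at -0.93 ± 0.24, a call lost without KO8 replicate 2, and shares exon sequence with Ccdc24. Slc7a11 had 0.755 and 0.822 CPM in KO7 and 0.421 and 1.07 CPM in KO8, against 1.704 and 1.57 CPM in WT, all HMCES-KO libraries below WT. It was called in neither line (-1.05 ± 0.46 and -1.11 ± 0.48, adjusted p = 0.0769 and 0.073) and was called lower for the mean of the lines (-1.08 ± 0.39, adjusted p = 0.0336), a call lost in 7 of 11 alternatives. Its reads are few, and parts of its transcripts, of 585 bases at most, match the tubulin genes Tuba1a, Tuba1b and Tuba1c and 10 annotated pseudogenes.

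Atf4, the transcription factor of the response (chr15:80255184-80257545), was higher in KO7 and lower in KO8. It had 819 and 866 CPM in KO7 and 567 and 612 CPM in KO8, against 667 and 676 CPM in WT, with 0.33 ± 0.05 in KO7 (adjusted p = 7.36e-05), -0.19 ± 0.05 in KO8 (adjusted p = 0.00979) and -0.51 ± 0.05 for KO8 minus KO7 (adjusted p = 3.44e-07). Both KO7 libraries were above WT and both KO8 libraries below. The call in KO8 was lost without KO8 replicate 1. Its relative Atf5 and its partner Cebpg were called higher in KO7, at 0.43 ± 0.07 and 0.31 ± 0.08, and not called in KO8, at -0.01 ± 0.08 and -0.18 ± 0.09, and KO8 was lower than KO7 for both.

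Of the 16 stress regulators, 8 were lower in KO8 and the other 8 were not called, while in KO7 6 were lower and 4 higher. The shares of all genes called lower and higher were 19.7% and 19.3% in KO8 and 19.2% and 19% in KO7. Stc2, a secreted glycoprotein induced by ATF4, had 10.95 and 9.25 CPM in KO7 and 7.69 and 7.56 CPM in KO8, against 25.9 and 17.6 CPM in WT, with -1.10 ± 0.17 (adjusted p = 3.44e-05) and -1.52 ± 0.18 (adjusted p = 1.84e-06). Ddit4, an inhibitor of the growth kinase mTORC1, had 73.2 and 74.4 CPM in KO7 and 72.5 and 82.8 CPM in KO8, against 179 and 113 CPM in WT, with -0.99 ± 0.13 (adjusted p = 5.59e-06) and -0.92 ± 0.13 (adjusted p = 1.54e-05). For both genes every HMCES-KO library was below WT, and WT replicate 1 was the higher of the WT libraries. In the untreated TPM table Ddit4 had 139 and 134 TPM in HMCES-KO against 127 and 126 TPM in WT, above WT without overlap and not called (0.10 ± 0.04, adjusted p = 0.163). Eif4ebp1, which holds back cap-dependent translation, had 232 and 218 CPM in KO7 and 189.95 and 195 CPM in KO8, against 266 and 278 CPM in WT, with -0.27 ± 0.06 (adjusted p = 0.000834) and -0.50 ± 0.06 (adjusted p = 1.19e-06). Its groups did not overlap, and 1 pseudogene matches its transcripts.

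Nupr1, a small stress-induced nuclear protein, had 14.7 and 15.6 CPM in KO7 and 8.63 and 7.76 CPM in KO8, against 20.9 and 17.6 CPM in WT, with -0.36 ± 0.14 (adjusted p = 0.0438) and -1.24 ± 0.15 (adjusted p = 2.86e-06). KO8 was lowest and the call in KO7 was lost in 7 of 11 alternatives, among them DESeq2. Vldlr had 4.08 and 3.91 CPM in KO7 and 1.05 and 1.36 CPM in KO8, against 7.38 and 3.83 CPM in WT, with -2.23 ± 0.36 in KO8 (adjusted p = 6.85e-05) and -1.72 ± 0.38 against KO7 (adjusted p = 0.00181), the lowest difference between the lines in the module. Its WT libraries were far apart, and KO7 overlapped them. Cebpb, a C/EBP partner of ATF4, had 9.36 and 10.8 CPM in KO7 and 13.2 and 13.2 CPM in KO8, against 15.8 and 16.99 CPM in WT and was lower in KO7 at -0.71 ± 0.14 (adjusted p = 0.000657), with -0.31 ± 0.14 in KO8. It had the highest difference of KO8 from KO7, 0.40 ± 0.15 (adjusted p = 0.0576), which did not pass the test. Its transcript matches one of Tmem189 over 320 bases at 99.4% identity.

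Chac1, which breaks down glutathione (chr2:119351242-119354327), and Trib3, a pseudokinase that binds ATF4, were lower in KO8 at -0.77 ± 0.12 (adjusted p = 4.9e-05) and -0.48 ± 0.07 (adjusted p = 2.94e-05), and were not called in KO7 at -0.01 ± 0.11 and -0.16 ± 0.07. Ddit3, the gene of the stress factor CHOP, had 12.2 and 13.7 CPM in KO7 and 11.2 and 12.7 CPM in KO8, against 13.2 and 13.7 CPM in WT. Its groups overlapped, and its fold changes of -0.06 ± 0.14 and -0.17 ± 0.15 were not called (adjusted p = 0.784 and 0.401). Ppp1r15a, which directs the phosphatase that resets eIF2, was higher in KO7 at 0.20 ± 0.07 and the kinase gene Eif2ak3 lower at -0.26 ± 0.08, calls lost in 7 and 4 of 11 alternatives. Eif2ak4 and Sesn2, a sensor of leucine, were called in neither line.

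The second pair of untreated groups, in the TPM table, did not show the fall of the serine and one-carbon enzymes as a class, with 2 called higher and 0 lower. Aldh1l2 lay below WT without overlap, with 1.81 and 1.396 TPM in HMCES-KO against 2.25 and 2.76 TPM in WT, and was not called. Of 40 members tested with limma on log2(TPM + 1), a scale that understates the change of low genes, 6 were higher and 8 lower in HMCES-KO, where 5.8% of all 13314 genes were called higher and 10.2% lower. The median of the members was 0.00, against -0.06 over all genes, and Slc7a11 was not tested. On the recovered reads, all of whose values above 0 came out whole within 0.01 reads, edgeR called 10 members higher and 9 lower of 41, where 28% of all genes were called, and higher calls made up 51% of all calls instead of 36.3%. Fewer members were called without WT replicate 1 or without WT replicate 2. Limma without a trended prior called 2 members, where 2.55% of all genes were called.

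Lower in that table were the transporters Slc1a4, Slc1a5, Slc7a1 and Slc7a3 and the enzymes Cbs, Cth and Pck2, with Sesn2. Slc1a4 had 26.4 and 27.95 TPM in HMCES-KO against 45.9 and 42.7 TPM in WT, -0.68 ± 0.08 on the log2 scale (adjusted p = 0.00628), and Cbs had 29.3 and 27.98 TPM in HMCES-KO against 44.9 and 42.7 TPM in WT, -0.59 ± 0.07 (adjusted p = 0.00782). These 2 calls also held in limma without trend. Slc7a1 had 142 and 143 TPM in HMCES-KO against 185 and 177 TPM in WT (-0.34 ± 0.04, adjusted p = 0.00843). Slc1a5 had 133 and 129 TPM in HMCES-KO against 158 and 165 TPM in WT (-0.30 ± 0.05, adjusted p = 0.0124). In these 4 genes both HMCES-KO libraries were below both WT libraries, as they were in the count table. Slc7a3, which was higher in the count table, had 251.2 and 254 TPM in HMCES-KO against 284 and 289 TPM in WT here (-0.18 ± 0.04, adjusted p = 0.0259). The remaining ones were Cth with 135 and 135 TPM in HMCES-KO against 156 and 161 TPM in WT (-0.23 ± 0.04), Sesn2 with 136 and 131 TPM in HMCES-KO against 172 and 165 TPM in WT (-0.33 ± 0.05) and Pck2 with 59.2 and 53.1 TPM in HMCES-KO against 67.4 and 76.3 TPM in WT (-0.35 ± 0.09), with adjusted p of 0.0214, 0.01 and 0.0457 and no overlap between the groups.

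Higher in that table were Phgdh, Mthfd2, Gpt2, Got1, Eif4ebp1 and Slc7a5. Phgdh had 24.2 and 28.8 TPM in HMCES-KO against 14.7 and 11.7 TPM in WT (0.96 ± 0.14, adjusted p = 0.0123), and Gpt2 had 62.6 and 63.1 TPM in HMCES-KO against 47.1 and 45.9 TPM in WT (0.43 ± 0.06, adjusted p = 0.00957). Eif4ebp1 had 467 and 583 TPM in HMCES-KO against 359.7 and 377 TPM in WT (0.50 ± 0.10, adjusted p = 0.0257), and Mthfd2 had 416 and 394 TPM in HMCES-KO against 351 and 338 TPM in WT (0.23 ± 0.04, adjusted p = 0.0214). For Phgdh, Gpt2, Eif4ebp1 and Mthfd2 the direction is opposite to that in KO8 of the count table, as it is for Slc7a5. Got1 had 497 and 502 TPM in HMCES-KO against 447 and 455 TPM in WT (0.15 ± 0.03) and Slc7a5 had 539 and 539 TPM in HMCES-KO against 487 and 497 TPM in WT (0.13 ± 0.03), with adjusted p of 0.0334 and 0.0442, small differences with no overlap. Atf4 was not called, with 1134 and 1110.2 TPM in HMCES-KO against 1082 and 1067 TPM in WT (0.06 ± 0.03), nor was Asns, with 424 and 419.6 TPM in HMCES-KO against 395 and 397 TPM in WT (0.09 ± 0.03). If the column names K81 and K82 stand for KO8, these opposite directions lie within 1 line. The WT columns carry different names too, CCE in that table and ES in the count table. For Eif4ebp1 the WT mean was 773 TPM from the counts and 368 TPM in that table, with KO8 at 535 TPM and HMCES-KO at 525 TPM. For Mthfd2 the WT mean was 378 and 345 TPM, with KO8 at 199 TPM and HMCES-KO at 405 TPM. The part of the WT libraries in these directions was not tested. The tables were normalised separately and no source states the line, so no test was run across them.

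**Figure D2:**
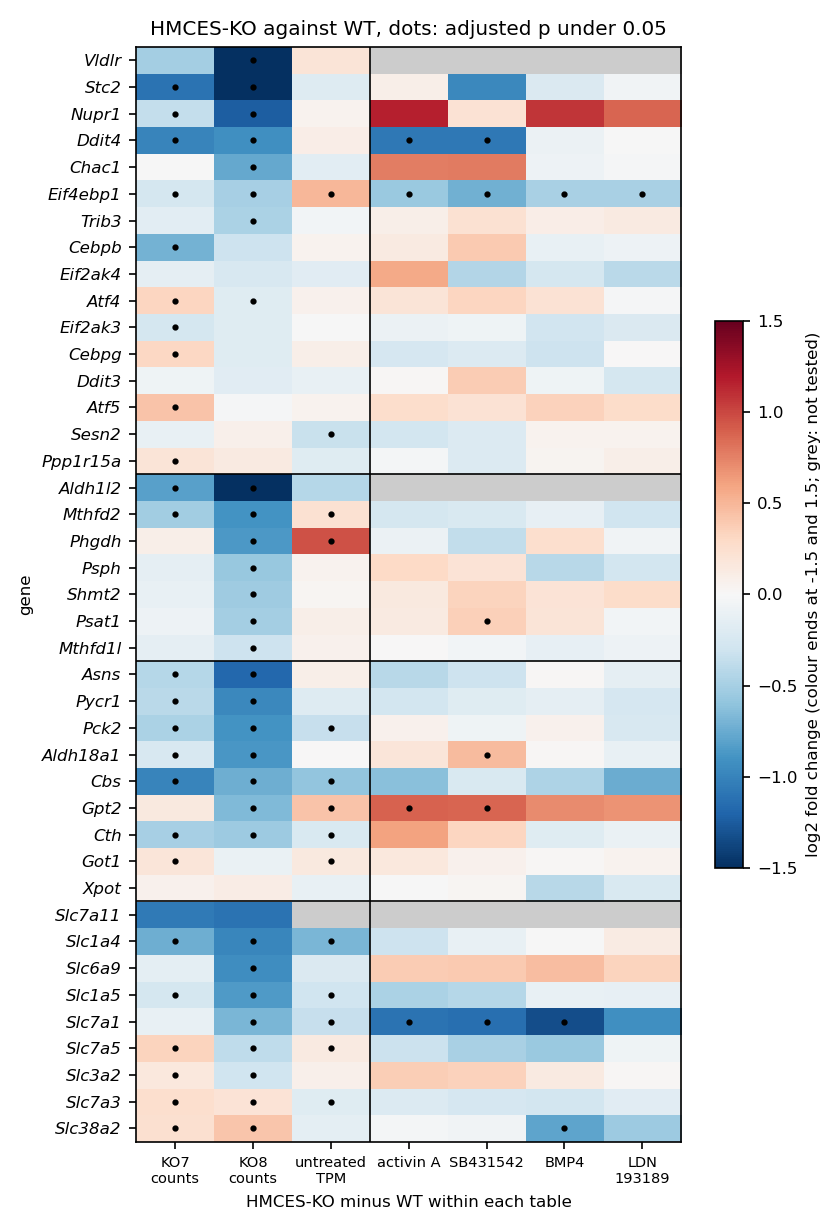
Heat map of the log2 fold change of HMCES-KO against WT for each member (rows, by class) in each comparison (columns), with dots for an adjusted p under 0.05 and grey for members not tested. Cbs and Slc7a1 are blue in every column, and Gpt2 is red in all columns but that of KO8. All 7 serine and one-carbon enzymes are blue with a dot in the column of KO8.

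After 2 h of treatment few members separated the genotypes within 1 table. Of 38 members tested, 1 was higher and 3 lower in HMCES-KO under activin A, where 5.1% and 7.03% of all 12608 genes were called, and 3 were higher and 3 lower under SB431542, where 5.41% and 6.73% were called. Under BMP4, 3 were lower and 35 not called, where 2.13% of all genes were called higher and 4.2% lower, and under LDN193189, 1 was lower and 37 not called, where 0.793% were called higher and 1.5% lower. In limma, 9 members under BMP4 and 8 under LDN193189 had an unadjusted p under 0.05, as did 22.4% and 17.3% of all genes. Without a trended prior 1 and 0 members were called, where 3.51% and 0.682% of all genes were called. Vldlr, Aldh1l2 and Slc7a11 were not tested, since they were low or not listed in every treated table. Libraries of 1 knockout line deviated together across tables, and with line and WT number as a replicate block, 11, 11, 6 and 4 members were called under activin A, SB431542, BMP4 and LDN193189 in turn, where 17%, 16.8%, 10.7% and 5.58% of all genes were called.

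Slc7a1 and Eif4ebp1 recurred among these. Slc7a1 had 7.63 (KO1) and 9.68 (KO2) against 22.7 and 17.2 TPM (WT) under activin A and 8.66 (KO1) and 6.88 (KO2) against 19.8 and 16.5 TPM (WT) under SB431542. Its values were 16.8 (KO1) and 9.91 (KO2) against 33.99 and 33.98 TPM (WT) under BMP4 and 20.9 (KO1) and 14.1 (KO2) against 31.1 and 35.97 TPM (WT) under LDN193189. Its HMCES-KO libraries were below both WT libraries in all 4 tables, with log2 fold changes of -1.11 ± 0.26, -1.13 ± 0.26, -1.33 ± 0.26 and -0.92 ± 0.26 (adjusted p = 0.0146, 0.0139, 0.0111 and 0.0867). Eif4ebp1 had 246 (KO1) and 234 (KO2) against 373 and 338 TPM (WT) under activin A and 258 (KO1) and 234 (KO2) against 410.1 and 399 TPM (WT) under SB431542. It reached 356 (KO1) and 409 (KO2) against 539 and 529 TPM (WT) with BMP4 and 350.4 (KO1) and 414 (KO2) against 490.2 and 582 TPM (WT) with LDN193189. It too was lower without overlap in every treated table, with -0.56 ± 0.11, -0.72 ± 0.11, -0.49 ± 0.11 and -0.49 ± 0.11 (adjusted p = 0.00615, 0.00171, 0.0222 and 0.0377). That direction is the one of the count table and the opposite of the untreated TPM table, and the call under LDN193189 was lost in 13 of 22 alternatives.

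Gpt2 was higher in HMCES-KO without overlap in every treated table. It had 16.99 (KO1) and 14.1 (KO2) against 7.94 and 7.92 TPM (WT) under activin A and 16.3 (KO1) and 12.6 (KO2) against 8.35 and 6.52 TPM (WT) under SB431542. After BMP4 it stood at 37.4 (KO1) and 31.1 (KO2) against 18.5 and 22.6 TPM (WT), and after LDN193189 at 35.2 (KO1) and 29.2 (KO2) against 18.8 and 20.6 TPM (WT). The fold changes were 0.88 ± 0.20, 0.87 ± 0.20, 0.71 ± 0.20 and 0.68 ± 0.20, of which those under activin A and SB431542 were called (adjusted p = 0.013 and 0.0141). Ddit4 was lower under activin A, with 255 and 248 TPM in HMCES-KO against 431 and 650.4 TPM in WT (-1.07 ± 0.19, adjusted p = 0.00351), and under SB431542, with 261 and 285 TPM in HMCES-KO against 523 and 632 TPM in WT (-1.07 ± 0.19, adjusted p = 0.00354). It had 299.6 and 404 TPM in HMCES-KO against 367 and 372 TPM in WT under BMP4 and 291 and 383 TPM in HMCES-KO against 312 and 361 TPM in WT under LDN193189, where its genotypes overlapped, at -0.09 ± 0.19 and -0.01 ± 0.19. The remaining calls were Psat1 (0.36 ± 0.11) and Aldh18a1 (0.48 ± 0.15) under SB431542 and Slc38a2 (-0.79 ± 0.21) under BMP4, each lost in 12 or more of 22 alternatives.

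With each knockout line taken on its own over the 4 treatments, 8 members were higher and 6 lower in KO1, where 12.4% and 20.3% of all genes were called, and 3 were higher and 9 lower in KO2, where 12.2% and 16.6% were called. The median of the members was -0.05 in KO1 and -0.09 in KO2, against -0.07 and -0.02 over all genes. The count in KO2 fell to 7 without its activin A library. In these fits a line's 4 libraries come from 4 tables, and both lines were set against the same WT libraries. Called in both lines were 7 members, and the share of all genes called in both was not counted. Slc7a1 was at -0.97 ± 0.14 in KO1 (adjusted p = 6.68e-05) and -1.28 ± 0.14 in KO2 (adjusted p = 8.09e-06). Eif4ebp1 was -0.59 ± 0.07 in KO1 and -0.54 ± 0.07 in KO2 (adjusted p = 8.82e-06 and 3.31e-05), and Gpt2 was 0.93 ± 0.10 and 0.65 ± 0.10 (adjusted p = 6.26e-06 and 0.000254).

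Cbs, the entry enzyme of cysteine synthesis, had 17.2 (KO1) and 27.5 (KO2) against 34.9 and 33.5 TPM (WT) under activin A and 20.7 (KO1) and 28.97 (KO2) against 33.1 and 25.2 TPM (WT) under SB431542. With BMP4 the level was 19.1 (KO1) and 21.7 (KO2) against 27.6 and 29.2 TPM (WT), and with LDN193189 22.8 (KO1) and 21.8 (KO2) against 37.9 and 38.4 TPM (WT). It was lower at -0.67 ± 0.12 in KO1 (adjusted p = 0.000431) and -0.36 ± 0.12 in KO2 (adjusted p = 0.03), and the call in KO2 was lost in 5 of 20 alternatives. Mthfd2 had 84.4 (KO1) and 76.2 (KO2) against 97.7 and 94.7 TPM (WT) under activin A and 101 (KO1) and 76.8 (KO2) against 107 and 99.6 TPM (WT) under SB431542. Mthfd2 had 216 (KO1) and 272 (KO2) against 277 and 253 TPM (WT) under BMP4 and 216 (KO1) and 243 (KO2) against 280.00 and 284 TPM (WT) under LDN193189. It was lower at -0.22 ± 0.08 and -0.23 ± 0.08 (adjusted p = 0.0418 and 0.0377). Shmt2, its partner in mitochondrial folate, had 175 (KO1) and 168 (KO2) against 162 and 148 TPM (WT) under activin A and 194 (KO1) and 192 (KO2) against 151 and 154 TPM (WT) under SB431542. Under BMP4 it had 263 (KO1) and 283 (KO2) against 242 and 231 TPM (WT), and under LDN193189 301 (KO1) and 224 (KO2) against 212 and 217 TPM (WT). It was higher at 0.29 ± 0.07 and 0.19 ± 0.07 (adjusted p = 0.00294 and 0.0387), opposite to KO8 of the count table. Atf5 had 221 (KO1) and 191 (KO2) against 185 and 157 TPM (WT) under activin A and 197 (KO1) and 175 (KO2) against 167 and 153 TPM (WT) under SB431542. Its values were 234 (KO1) and 197 (KO2) against 172 and 166 TPM (WT) under BMP4 and 219 (KO1) and 189 (KO2) against 182 and 155 TPM (WT) under LDN193189. It was higher at 0.38 ± 0.06 and 0.17 ± 0.06 (adjusted p = 0.000167 and 0.0426). The calls of Mthfd2 in both lines and of Shmt2 and Atf5 in KO2 were lost in 9 to 11 of 20 alternatives.

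Further members were called in KO1 or in KO2, and apart from Asns none of these passed the test of KO2 minus KO1. Atf4 was higher in KO1 at 0.29 ± 0.06 (adjusted p = 0.00129) and at 0.07 ± 0.06 in KO2 (adjusted p = 0.383). It had 1989 (KO1) and 1689 (KO2) against 1532 and 1668 TPM (WT) under activin A and 2051 (KO1) and 1898 (KO2) against 1639 and 1525 TPM (WT) under SB431542. It reached 4642 (KO1) and 4076 (KO2) against 3542 and 3932 TPM (WT) with BMP4 and 3867 (KO1) and 3068 (KO2) against 3437 and 3521 TPM (WT) with LDN193189. KO1 was the highest library in each table. Nupr1 was 1.03 ± 0.24 in KO1 (adjusted p = 0.00351) and 0.63 ± 0.24 in KO2 (adjusted p = 0.0569), opposite to its direction in the count table. It had 3.86 (KO1) and 3.02 (KO2) against 1.64 and 0.473 TPM (WT) under activin A and 3.398 (KO1) and 4.13 (KO2) against 3.24 and 2.95 TPM (WT) under SB431542. After BMP4 it stood at 35.7 (KO1) and 26.1 (KO2) against 10.7 and 18.3 TPM (WT), and after LDN193189 at 32.4 (KO1) and 14.5 (KO2) against 8.47 and 15.2 TPM (WT). The genotypes did not overlap except under LDN193189. Ddit4 was lower in KO1 at -0.67 ± 0.18 (adjusted p = 0.00925), a call lost without the KO1 library of SB431542.

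Among the enzymes, Psat1 was higher in KO1 at 0.22 ± 0.07 (adjusted p = 0.0283) and Got1 at 0.17 ± 0.05 (adjusted p = 0.0171). Psat1 had 91.4 (KO1) and 74.5 (KO2) against 76.98 and 73.7 TPM (WT) under activin A and 89.1 (KO1) and 91.1 (KO2) against 70.1 and 69.7 TPM (WT) under SB431542. With BMP4 the level was 138 (KO1) and 121 (KO2) against 109 and 116 TPM (WT), and with LDN193189 123 (KO1) and 120.4 (KO2) against 126 and 125 TPM (WT). Got1 had 320.1 (KO1) and 303 (KO2) against 264 and 293 TPM (WT) under activin A and 318 (KO1) and 276 (KO2) against 279 and 290.3 TPM (WT) under SB431542. Got1 had 368 (KO1) and 300.4 (KO2) against 328 and 330.1 TPM (WT) under BMP4 and 361 (KO1) and 316 (KO2) against 334 and 319.7 TPM (WT) under LDN193189. Both differences are small beside the level, and the call of Psat1 was lost in 6 of 20 alternatives. Pycr1, which completes proline synthesis, had 25.1 (KO1) and 12.9 (KO2) against 20.6 and 23.7 TPM (WT) under activin A and 19.4 (KO1) and 21.6 (KO2) against 22.3 and 24.4 TPM (WT) under SB431542. Under BMP4 it had 21.3 (KO1) and 16.02 (KO2) against 20.6 and 20.2 TPM (WT), and under LDN193189 20.04 (KO1) and 20.2 (KO2) against 21.1 and 27.5 TPM (WT). It was lower in KO2 at -0.35 ± 0.13 (adjusted p = 0.0492), lost in 12 of 20 alternatives.

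Of the transporters, Slc3a2 was higher in KO1 at 0.32 ± 0.06 (adjusted p = 0.001), while its partner Slc7a5 was lower in KO2 at -0.55 ± 0.10 (adjusted p = 0.000775). Slc3a2 had 642 (KO1) and 556 (KO2) against 467 and 457 TPM (WT) under activin A and 567 (KO1) and 500.3 (KO2) against 445 and 392 TPM (WT) under SB431542. Its values were 845 (KO1) and 765 (KO2) against 712 and 757 TPM (WT) under BMP4 and 929 (KO1) and 749 (KO2) against 812 and 829 TPM (WT) under LDN193189. Slc7a5 had 381 (KO1) and 268 (KO2) against 414 and 384 TPM (WT) under activin A and 349.6 (KO1) and 236 (KO2) against 396 and 411 TPM (WT) under SB431542. It reached 527 (KO1) and 338 (KO2) against 634 and 612 TPM (WT) with BMP4 and 484 (KO1) and 552 (KO2) against 549 and 535 TPM (WT) with LDN193189. For Slc7a5, KO2 was the lowest library in each table but that of LDN193189, where it was the highest. Slc1a5 had 55.3 (KO1) and 50.2 (KO2) against 78.8 and 68.99 TPM (WT) under activin A and 44.1 (KO1) and 48.8 (KO2) against 66.9 and 58.4 TPM (WT) under SB431542. After BMP4 it stood at 117 (KO1) and 83.9 (KO2) against 109 and 105 TPM (WT), and after LDN193189 at 112 (KO1) and 109 (KO2) against 112 and 129 TPM (WT). It was lower in KO2 at -0.35 ± 0.09 (adjusted p = 0.0121). Slc7a3 had 178 (KO1) and 155 (KO2) against 187 and 197 TPM (WT) under activin A and 166 (KO1) and 157 (KO2) against 189 and 196 TPM (WT) under SB431542. With BMP4 the level was 193 (KO1) and 149 (KO2) against 199 and 214 TPM (WT), and with LDN193189 179 (KO1) and 196 (KO2) against 198 and 224 TPM (WT). It was lower in KO2 at -0.29 ± 0.06 (adjusted p = 0.00306), and its HMCES-KO libraries were below WT in all 4 tables. Slc38a2 had 27.6 (KO1) and 31.5 (KO2) against 33.3 and 27.2 TPM (WT) under activin A and 27.2 (KO1) and 32.7 (KO2) against 35.6 and 26.8 TPM (WT) under SB431542. Slc38a2 had 37.4 (KO1) and 30.95 (KO2) against 60.7 and 58.1 TPM (WT) under BMP4 and 29.3 (KO1) and 45.7 (KO2) against 48.9 and 58.9 TPM (WT) under LDN193189. It was lower in KO1 at -0.45 ± 0.15 (adjusted p = 0.0285), opposite to the count table, and the call was lost in 6 of 20 alternatives.

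Asns was the 1 member that separated the treated lines. It had 275 (KO1) and 201 (KO2) against 319 and 312 TPM (WT) under activin A and 308 (KO1) and 179 (KO2) against 301 and 284 TPM (WT) under SB431542. Under BMP4 it had 428 (KO1) and 287 (KO2) against 355 and 340.4 TPM (WT), and under LDN193189 396 (KO1) and 268 (KO2) against 359 and 359 TPM (WT). KO2 was below KO1 and below both WT libraries in each table, at -0.51 ± 0.07 against WT (adjusted p = 6.74e-05), while KO1 was at 0.08 ± 0.07 (adjusted p = 0.407). The difference of KO2 from KO1 was -0.59 ± 0.08 (adjusted p = 0.000373), a call kept in every one of its 20 alternatives. Over all genes, 2.7% were called lower and 3.89% higher in KO2 than in KO1.

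**Figure D3:**
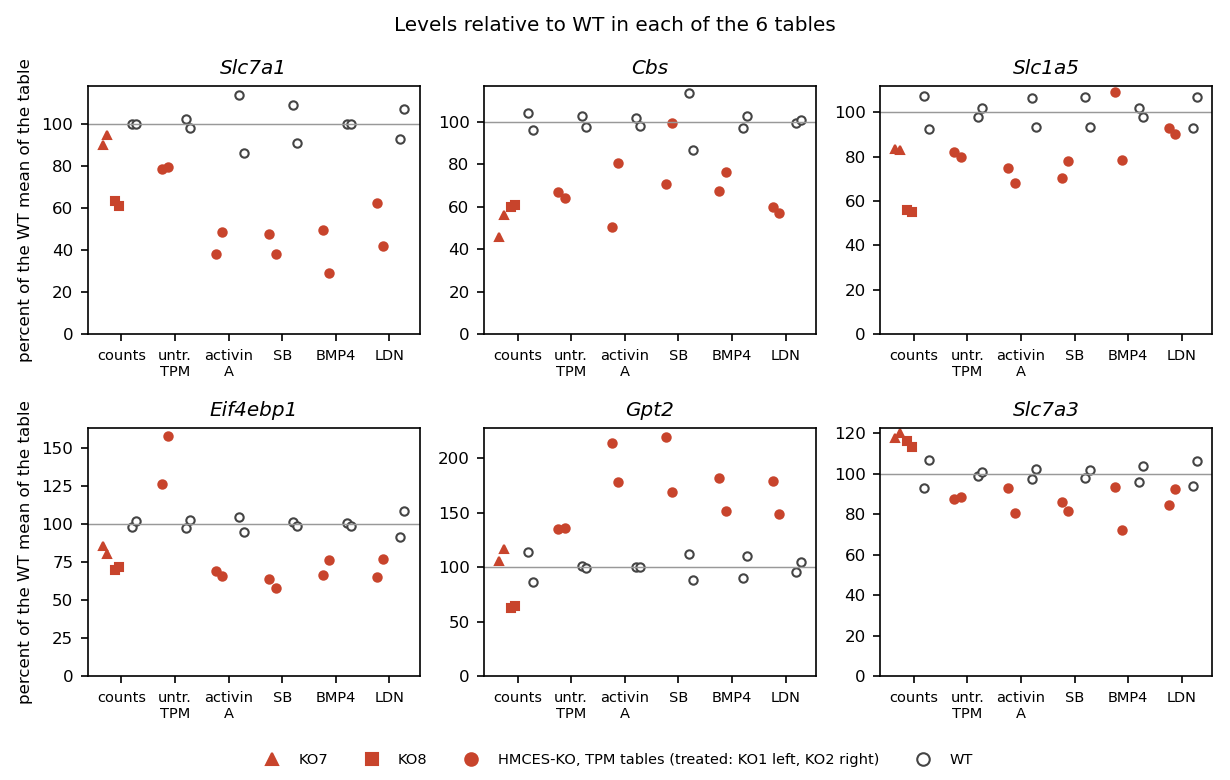
Level of 6 members in each library as a percentage of the WT mean of the same table, with HMCES-KO in red and WT as open circles, over the 6 tables. Slc7a1 lies below WT in all HMCES-KO libraries, Gpt2 lies above WT in the TPM tables and below it in KO8, and Eif4ebp1 lies below WT except in the untreated TPM table.

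Over all 6 tables, 38 members and 12878 genes were listed everywhere. Slc7a1 was the 1 member with every HMCES-KO library below every WT library in all 6 tables, as were 1.63% of genes. In 5 or more tables this held for 5 members, Slc7a1, Eif4ebp1, Cbs, Slc7a3 and Slc1a5, as for 7.42% of genes, and the opposite held for Gpt2 alone, as for 4.05% of genes. These shares describe the tables, which share no libraries. The embryonic stem cell sum overlapped between genotypes in the untreated TPM, activin A and BMP4 tables. It was higher in HMCES-KO without overlap under SB431542, at 21824 to 23839 TPM against 21560 to 21818 TPM in WT. Under LDN193189 it was also higher, at 24369.5 to 26835 TPM in HMCES-KO against 22821 to 23037 TPM in WT. Marker sums of other cell types differed too. In the untreated TPM table the endoderm sum was 91.9 to 92.8 TPM in HMCES-KO and 117 to 120.5 TPM in WT, the fibroblast sum 21.7 to 27.4 TPM in HMCES-KO and 34.4 to 36.01 TPM in WT, and the trophectoderm sum 48.01 to 50.2 TPM in HMCES-KO and 59.1 to 60.8 TPM in WT. In that table Col1a1, Col1a2, Col3a1, Postn and Lum (fibroblast), Sox17 and Foxa2 (endoderm) and Elf5 and Gata3 (trophectoderm) were under 1 TPM. The neuroectoderm sum was higher there, at 219 to 246 TPM in HMCES-KO and 169.8 to 182 TPM in WT. It was also higher without overlap in each treated table, at 828 to 1351 TPM over the HMCES-KO libraries and 734 to 1038 TPM over the WT libraries. The endoderm and fibroblast sums were lower in HMCES-KO in each treated table. Endoderm sums were 36.96 to 85.7 TPM in HMCES-KO and 61.2 to 118 TPM in WT, and fibroblast sums 4.36 to 22.8 TPM in HMCES-KO and 29.9 to 45.1 TPM in WT. Of the 7 fibroblast markers 3 or 4 were listed. Of these, Col1a1 was below 1 TPM in the activin A, SB431542 and BMP4 tables, Col1a2 in that of SB431542 and Col3a1 in that of LDN193189. The part of the marker sums in these differences was not tested.

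A ligand and the inhibitor of its receptors did not differ by a call for any member. For activin A minus SB431542, 0 of 38 members were called in HMCES-KO, where 0.0872% of genes were called higher and 0.0159% lower, and 0 in WT, where 0.0159% and 0% were called. For BMP4 minus LDN193189, 0 members were called in HMCES-KO, where 0.0238% and 0% of genes were called higher and lower, and 0 in WT, where 0.0238% and 0.00793% were called. The differences between genotypes of these contrasts called 0 members and 0% of genes in either direction for both pairs. In limma, 1, 3 and 2 members had an unadjusted p under 0.05 for activin A minus SB431542 in HMCES-KO, in WT and in the difference, as did 4.91%, 3.53% and 3.78% of all genes. For BMP4 minus LDN193189 it was 2, 0 and 0 members and 4.6%, 4.48% and 4.95% of all genes. Limma without a trended prior and limma with the replicate block called 0 members in each, where at most 0.151% of all genes were called. The largest estimate of the 3 contrasts of activin A and SB431542 was that of Stc2 in the difference between genotypes, at 1.05 on the log2 scale.

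The treated tables fell into 2 pairs instead, with many members higher in the BMP4 and LDN193189 tables than in the activin A and SB431542 tables. This contrast was chosen after these values were seen, and it sets 2 tables against 2 others, so that treatment, table and any batch behind a table cannot be told apart. It joins a ligand and an inhibitor of the same pathway on each side. In HMCES-KO, 20 of 38 members were higher and the other 18 not called, where 1.57% and 1.46% of all genes were called higher and lower. In WT, 23 were higher and 1 lower, where 4.92% and 4.69% of all genes were called. The members' median was 0.54 in HMCES-KO and 0.67 in WT, against -0.02 and 0.01 over all genes. All BMP4 and LDN193189 libraries were above all activin A and SB431542 libraries for 21 members in HMCES-KO, as for 3.84% of genes, and for 28 in WT, as for 10.2% of genes. All were below for 0 members in HMCES-KO, as for 4.79% of genes, and for 1 in WT, as for 10.4% of genes. With line and WT number as a replicate block, 23 members were higher in HMCES-KO, and 25 were higher and 1 lower in WT, where 6.88% and 13.6% of all genes were called.

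Marker sums moved with this contrast as well, and their part in it was not tested. Neuroectoderm markers summed to 1096 to 1351 TPM under BMP4 and LDN193189 against 828 to 967 TPM under activin A and SB431542 in HMCES-KO, and to 963 to 1038 against 734 to 782 TPM in WT. Endoderm markers summed to 57.4 to 85.7 TPM under BMP4 and LDN193189 against 36.96 to 46.03 TPM under activin A and SB431542 in HMCES-KO, and to 96.6 to 118 against 61.2 to 73.2 TPM in WT. Both were higher without overlap in either genotype. Trophectoderm markers summed to 69.2 to 127 TPM under BMP4 and LDN193189 against 119 to 162 TPM under activin A and SB431542 in HMCES-KO, where they overlapped, and to 79.6 to 95.8 against 166 to 181 TPM in WT, where they did not. The embryonic stem cell sum was 23481 to 26835 TPM under BMP4 and LDN193189 against 21824 to 23839 TPM under activin A and SB431542 in HMCES-KO, which overlapped, and 22821 to 23637 against 21560 to 22007 TPM in WT, which did not.

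Chac1 had 309 to 479 TPM under BMP4 and LDN193189 against 20.2 to 30.2 TPM under activin A and SB431542 in HMCES-KO, and 323 to 516 against 9.93 to 19.9 TPM in WT. This is a log2 difference of 3.97 ± 0.17 in HMCES-KO (adjusted p = 5.27e-08) and 4.79 ± 0.17 in WT (adjusted p = 4.6e-09), the largest among the members. Trib3 had 308 to 390.4 TPM under BMP4 and LDN193189 against 74.4 to 96.2 TPM under activin A and SB431542 in HMCES-KO, and 296 to 366 against 68.01 to 83.8 TPM in WT (2.01 ± 0.09 and 2.05 ± 0.09, adjusted p = 5.94e-08 and 4.66e-08). Both genes had no overlap between the sides in either genotype. Atf4 itself had 3068 to 4642 TPM under BMP4 and LDN193189 against 1689 to 2051 TPM under activin A and SB431542 in HMCES-KO, and 3437 to 3932 against 1525 to 1668 TPM in WT, with 1.03 ± 0.08 and 1.18 ± 0.08 (adjusted p = 2.1e-05 and 3.23e-06). Nupr1 (2.55 ± 0.29 and 2.26 ± 0.29), Stc2 (1.87 ± 0.22 and 1.56 ± 0.22), Cebpb (0.96 ± 0.12 and 1.32 ± 0.12), Sesn2 (0.93 ± 0.09 and 0.64 ± 0.09) and Eif4ebp1 (0.65 ± 0.08 and 0.49 ± 0.08) were also called higher in HMCES-KO and in WT.

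**Figure D4:**
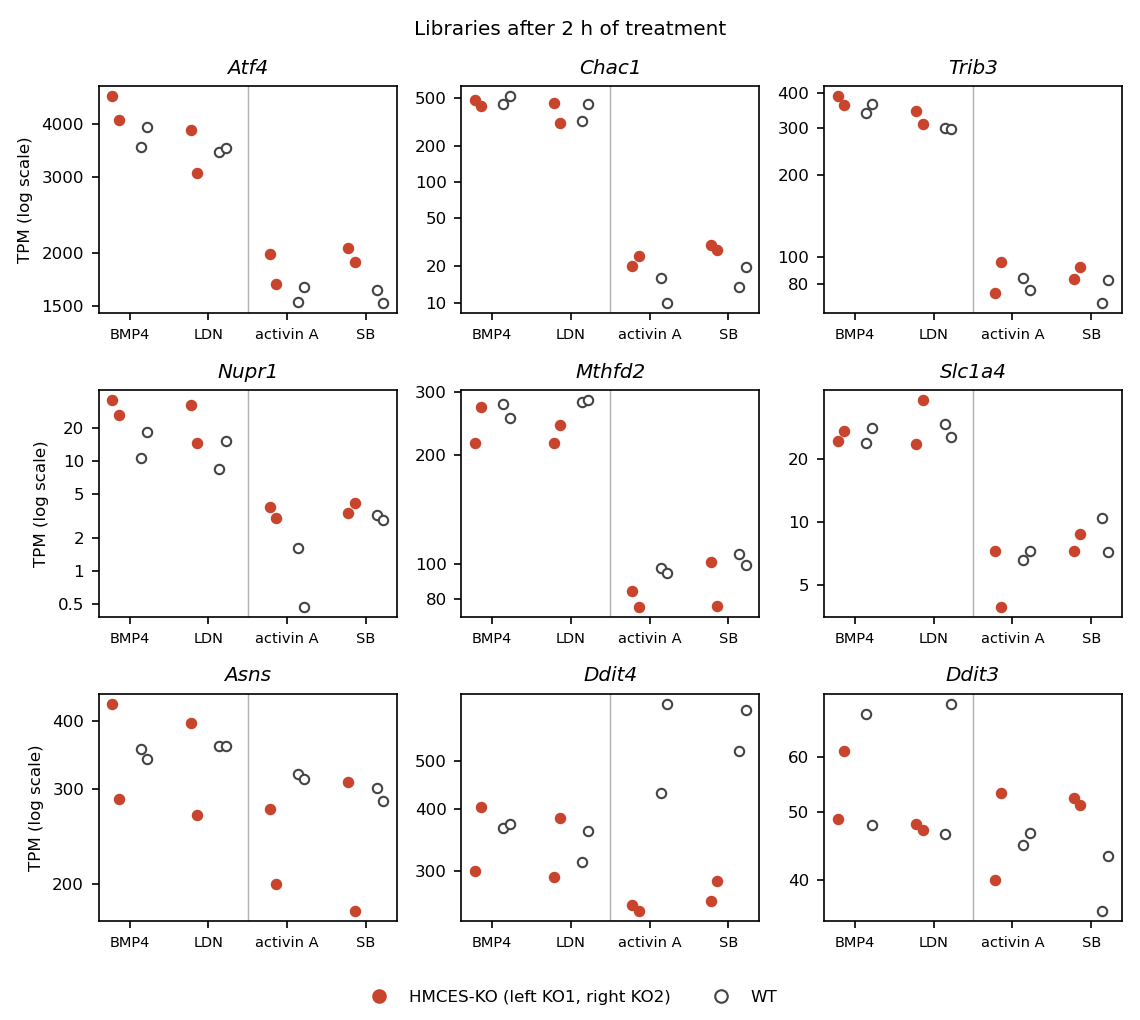
TPM on a log axis of 9 members in each treated library, HMCES-KO in red and WT as open circles, with the BMP4 and LDN193189 (LDN) tables left of the line and the activin A and SB431542 (SB) tables right of it. Atf4, Chac1, Trib3, Nupr1, Mthfd2 and Slc1a4 lie higher on the left in both genotypes, and Ddit3 overlaps in both. Asns overlaps in HMCES-KO and lies higher on the left in WT, and Ddit4 of WT lies higher on the right.

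Among the enzymes, Mthfd2 had 216 to 272 TPM under BMP4 and LDN193189 against 76.2 to 101 TPM under activin A and SB431542 in HMCES-KO, and 253 to 284 against 94.7 to 107 TPM in WT, with 1.48 ± 0.10 and 1.45 ± 0.10 (adjusted p = 2.4e-06 and 2.39e-06). Pck2 had 127 to 157 TPM under BMP4 and LDN193189 against 44.9 to 61.3 TPM under activin A and SB431542 in HMCES-KO, and 138 to 153 against 51.1 to 53.7 TPM in WT, with 1.37 ± 0.09 and 1.45 ± 0.09 (adjusted p = 2.4e-06 and 1.12e-06). Neither overlapped between the sides. Psat1 (0.53 ± 0.08 and 0.71 ± 0.08), Shmt2 (0.55 ± 0.08 and 0.55 ± 0.08), Aldh18a1 (0.98 ± 0.10 and 1.35 ± 0.10) and Gpt2 (1.10 ± 0.14 and 1.28 ± 0.14) were higher in both genotypes, and Psph (0.97 ± 0.15) and Cth (0.98 ± 0.14) were called in WT and not in HMCES-KO, a difference between genotypes that did not pass its own test. Asns was not called in either genotype, at 0.52 ± 0.17 in HMCES-KO (adjusted p = 0.129) and 0.22 ± 0.17 in WT (adjusted p = 0.496).

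Of the transporters, Slc1a4 had 23.4 to 37.9 TPM under BMP4 and LDN193189 against 3.93 to 8.75 TPM under activin A and SB431542 in HMCES-KO, and 23.6 to 29.2 against 6.59 to 10.4 TPM in WT (1.92 ± 0.20 and 1.65 ± 0.20, adjusted p = 0.00013 and 0.000194), and Slc6a9 had 6.31 to 7.45 TPM under BMP4 and LDN193189 against 0.1095 to 1.62 TPM under activin A and SB431542 in HMCES-KO, and 4.08 to 5.93 against 0.117 to 0.565 TPM in WT (2.15 ± 0.26 and 2.14 ± 0.26, adjusted p = 0.000598 and 0.000261). The sides were apart for both. Slc1a5, Slc3a2, Slc7a1 and Slc7a5 were higher by 0.53 to 1.07 in both genotypes, with the calls of Slc7a1 and Slc7a5 in HMCES-KO lost in 11 and 14 of 21 alternatives, and Slc38a2 was called in WT (0.87 ± 0.15, adjusted p = 0.00281). Ddit3, Atf5, Cebpg, Ppp1r15a, Eif2ak3, Eif2ak4, Xpot, Cbs, Got1, Pycr1, Phgdh, Mthfd1l and Slc7a3 were called in neither genotype. Of the members whose window held the letters TGATGNAA, 5 of 8 tested were higher in each genotype, against 12 of 25 in HMCES-KO and 14 of 25 in WT for those whose window did not hold them. Over all genes, 1.57% were called higher in HMCES-KO and 4.92% in WT. The median log2 difference was 1.64 with the letters and 0.53 without in HMCES-KO, and 1.55 and 0.64 in WT. The part of the letters in this was not tested.

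Ddit4 was the 1 member for which this contrast differed between genotypes. It had 291 to 404 TPM under BMP4 and LDN193189 against 248 to 285 TPM under activin A and SB431542 in HMCES-KO, and 312 to 372 against 431 to 650.4 TPM in WT. It was not called in HMCES-KO at 0.38 ± 0.13 (adjusted p = 0.153) and was lower in WT at -0.65 ± 0.13 (adjusted p = 0.00876), and the difference of the genotypes was 1.02 ± 0.19 (adjusted p = 0.0313), where 0.46% of genes were called higher and 0.412% lower. That call was lost in 12 of 21 alternatives, among them limma without trend. WT under activin A and SB431542 was the highest group and HMCES-KO under the same treatments the lowest, with no overlap. For Chac1 the difference was -0.82 ± 0.24 and was not called (adjusted p = 0.149).

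Other genes of the pathway were counted from lists fixed by name, to be read beside the shares of all genes called. Those shares, higher and lower, were 19% and 19.2% in KO7 and 19.3% and 19.7% in KO8. They were 5.8% and 10.2% in the untreated TPM table, 12.4% and 20.3% in KO1 and 12.2% and 16.6% in KO2. Between the table pairs they were 1.57% and 1.46% in HMCES-KO and 4.92% and 4.69% in WT. The 20 cytosolic aminoacyl-tRNA synthetases, which load tRNAs with amino acids, had 12 lower and 1 higher in KO8, and 5 lower and 3 higher in KO7. The lowest adjusted p were those of Lars (-0.62 ± 0.06, adjusted p = 4.67e-08) and Gars (-0.50 ± 0.05, adjusted p = 2.78e-07) in KO8 and of Lars (-0.47 ± 0.05, adjusted p = 1.44e-06) and Farsa (0.58 ± 0.07, adjusted p = 2.47e-06) in KO7. Lars, which charges leucine, also had the lowest p of the list in the untreated TPM table (-0.44 ± 0.04, adjusted p = 0.00441), in KO1 (-1.15 ± 0.08, adjusted p = 3.44e-08) and in KO2 (-1.02 ± 0.08, adjusted p = 3.25e-07). In these 3 comparisons 4 synthetases were higher and 6 lower of 20, 6 higher and 4 lower of 19, and 4 higher and 4 lower of 19. Between the table pairs, 7 of 19 were higher in HMCES-KO and 13 of 19 in WT, with the others not called, led in HMCES-KO by Nars (0.49 ± 0.06, adjusted p = 0.000582) and Yars (0.68 ± 0.10, adjusted p = 0.00178) and in WT by Nars (0.66 ± 0.06, adjusted p = 1.97e-05) and Tars (0.66 ± 0.08, adjusted p = 0.000257).

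Of 13 genes of eIF2, eIF2B and their regulators, 1 was called against WT in the count table, Impact, an inhibitor of GCN2 activation, which was higher in KO7 (0.84 ± 0.06, adjusted p = 9.18e-10) and KO8 (1.42 ± 0.06, adjusted p = 2.27e-13), as it was in the untreated TPM table (0.84 ± 0.04, adjusted p = 0.000455), where 3 others of the list were lower. The 18 genes of the endoplasmic reticulum unfolded protein response had 6 higher and 3 lower in KO7, where 19% and 19.2% of all genes were called. In KO8, 3 were higher and 3 lower, where 19.3% and 19.7% of all genes were called. Edem1, which passes misfolded proteins to degradation, was lowest in p in KO7 (-0.73 ± 0.07, adjusted p = 5.88e-08) and KO8 (-0.67 ± 0.07, adjusted p = 1.87e-07). Between the table pairs 1 of these 18 was higher and 3 lower in each genotype, led by Hspa5 (-0.63 ± 0.08, adjusted p = 0.000942) and Xbp1 (-0.92 ± 0.14, adjusted p = 0.00313) in HMCES-KO and by Herpud1 (2.51 ± 0.27, adjusted p = 8.92e-05) and Creld2 (-0.46 ± 0.10, adjusted p = 0.0134) in WT. In KO1 and KO2, 4 and 6 of the 18 were higher and 5 and 3 lower, with Pdia4 (0.73 ± 0.06, adjusted p = 5.21e-07) in KO1 and Pdia4 (0.63 ± 0.06, adjusted p = 4.17e-06) in KO2 in front. Of all genes, 12.4% and 12.2% were called higher in KO1 and KO2, and 20.3% and 16.6% lower.

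Of 8 mitochondrial chaperones and proteases, 2 were higher in KO7 and 1 in KO8, led by Clpp (0.26 ± 0.07, adjusted p = 0.00357) in KO7 and Clpp (0.29 ± 0.07, adjusted p = 0.00204) in KO8, and 4 were lower in each of KO1 and KO2, led by Hspd1 (-0.82 ± 0.11, adjusted p = 3.81e-05) and Hspd1 (-0.88 ± 0.11, adjusted p = 2.81e-05). For this list and those below, 19% and 19.2% of all genes were called higher and lower in KO7 and 19.3% and 19.7% in KO8. The shares were 12.4% and 20.3% in KO1 and 12.2% and 16.6% in KO2. Of 12 genes of the folate, glycine and methionine cycle, 2 were higher and 2 lower in KO7 and 3 higher and 1 lower in KO8, with Gldc (-0.996 ± 0.06, adjusted p = 2.83e-10) and Gcsh (0.34 ± 0.06, adjusted p = 0.000203) in KO7 and Gldc (-0.26 ± 0.06, adjusted p = 0.00162) and Amt (0.26 ± 0.06, adjusted p = 0.00219) in KO8 in front. In the treated lines the lead was with Mat2a (-0.71 ± 0.07, adjusted p = 1.52e-06) in KO1 and Mat2a (-0.64 ± 0.07, adjusted p = 7.86e-06) in KO2. Of 13 other amino acid transporters tested, 2 were higher and 6 lower in KO7 and 1 higher and 8 lower in KO8, led by Slc38a1 (0.49 ± 0.05, adjusted p = 7.07e-07) and Slc1a3 (-1.15 ± 0.14, adjusted p = 3.11e-06) in KO7 and by Slc38a4 (-0.32 ± 0.06, adjusted p = 0.00045) and Slc38a1 (0.27 ± 0.05, adjusted p = 0.000648) in KO8.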

How the data were processed

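RNA of 26 libraries was prepared with a TIANGEN kit and sequenced as Illumina TruSeq libraries, per the labels' protocols. FastQC 0.11.5, Bowtie2 2.3.3, SAMtools 1.9, featureCounts 2.0.1, DESeq2 (no version) and the build mm10 are named in the submitters' processing notes. The count table holds reads per gene, counted by the authors over exons of a RefSeq annotation in paired mode with featureCounts, per the file headers, which record no strand setting and no filter beyond high-quality alignments. The other 5 tables hold TPM as deposited by the authors, and their steps are not given in the sources used here.

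Counts were tested with edgeR 4.0.16 (R 4.3.3) by its quasi-likelihood test, with TMM scaling, filterByExpr and 3 groups of 2 libraries, and CPM are TMM-scaled. TPM were tested on log2(TPM + 1), by limma 3.58.1 with its trended prior, for genes at 1 TPM or more in at least 2 libraries, the 16 treated libraries together as 8 groups on 12928 shared genes (99.95% to 99.97% of TPM), rescaled to these. KO1 and KO2 were fitted with treatment and line as terms. A call is a Benjamini-Hochberg adjusted p under 0.05 over all genes tested, and errors are standard errors unless given otherwise. No source names separate cultures, and the p-values then reflect only how these libraries vary, which may be technical. Columns of the count table without a knockout name were taken as WT. The members and lists were chosen with earlier results of these data known. Values per library are given for members called alike or oppositely in KO7 and KO8, in the untreated TPM table, or in KO1 or KO2, and for Atf4, Ddit3 and the extremes of KO8 minus KO7. For the other lists, members of lowest adjusted p are named, and 1 gene of these lists is not reported here.

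The same line numbers paired the knockout libraries of the treated tables, where the deviations of KO2 from KO1 correlated between tables at r of 0.227 to 0.323 over genes, while those of the WT numbers did not (r of -0.0222 to 0.007). Alternatives were DESeq2 1.42.0, RLE scaling, other pseudocounts, filters and priors, a replicate block, and leaving out each library. The fits were tested on simulated data. Copies of members were sought at 90% identity over 300 bases in GENCODE M21 transcripts.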

Additional observations from a re-analysis of the deposited data

Results flagged for a closer look

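The untreated knockout lines differed from each other for 26 members by the test of KO8 minus KO7 (edgeR's quasi-likelihood test, Benjamini-Hochberg adjusted p under 0.05, 2 libraries a line), where 14.3% of all genes were called lower and 13.9% higher. A different effect of the knockout and other differences between the lines cannot be told apart here. Among the stress regulators the log2 difference was -0.51 for Atf4, -0.44 for Atf5, -0.32 for Trib3, -0.76 for Chac1, -0.49 for Cebpg, -0.88 for Nupr1, -0.23 for Eif4ebp1 and -1.72 for Vldlr, and 0.19 for Sesn2. Among the serine and one-carbon enzymes it was -0.43 for Psat1, -0.95 for Phgdh, -0.43 for Psph, -0.42 for Shmt2 and -0.38 for Mthfd2. Among the other enzymes it was -0.75 for Asns, -0.63 for Aldh18a1, -0.56 for Pycr1, -0.42 for Pck2, -0.80 for Gpt2 and -0.29 for Got1. Among the transporters it was -0.57 for Slc7a1, -0.71 for Slc7a5, -0.46 for Slc3a2, -0.59 for Slc1a5 and -0.78 for Slc6a9, and 0.17 for Slc38a2.

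In the treated tables Asns differed between the lines, at -0.59 for KO2 minus KO1 over the 4 treatments. For Ddit4 the contrast of the BMP4 and LDN193189 tables with the activin A and SB431542 tables differed between HMCES-KO and WT by 1.02, a contrast chosen after its values were seen.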

How the results depend on the processing

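Of the 212 calls of members, 133 were kept under every alternative run for them, and over all 3151 recomputed calls 2808 kept their side of the threshold, 343 lost it and 0 changed direction. Groups held 2 libraries each, and Vldlr, Aldh1l2, Slc7a11 and Slc6a9 had few reads. Fitting the 4 HMCES-KO libraries as 1 group, whose spread then includes the difference between lines, called 9 members in place of 31 for the mean of the lines. Of all genes, 11.5% were called in that fit, against 40.6%. DESeq2 called 20, 30, 24 and 24 members in KO7, KO8, the mean and KO8 minus KO7, against 25, 30, 31 and 26 with edgeR. Of all genes, DESeq2 called 26.1%, 25.8%, 28.3% and 18.7% in turn, and edgeR 38.2%, 38.9%, 40.6% and 28.2%. Limma without trend called 2 members in the untreated TPM table, 1 under BMP4, 0 under LDN193189 and 0 for the genotype difference of the table pairs. Of all genes it called 2.55%, 3.51%, 0.682% and 0.143% in turn, against 16%, 6.33%, 2.29% and 0.872% with trend. Fitting only the 4 libraries of a table called 0 members under BMP4 and 0 under LDN193189. Such fits called 0.342% and 0.00834% of all genes, against 6.33% and 2.29% in the main fit. The cause of these losses was not tested.

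With the replicate block of line and WT number, 11 members were called under activin A, 11 under SB431542, 6 under BMP4, 4 under LDN193189 and 2 for the genotype difference of the table pairs, and 0 for the ligand contrasts. Of all genes, 17%, 16.8%, 10.7%, 5.58% and 2.83% were called in turn, and at most 0.151% for the ligand contrasts. In the count table and the untreated TPM table samples share only a number (r of 0.0097, -0.0166, -0.0121 and 0.0318 over genes), and that replicate block gave 25, 30, 31 and 26 calls for KO7, KO8, their mean and KO8 minus KO7, and 12 for the untreated TPM table, where Pck2 and Slc7a5 lost their calls. Of all genes, 38.2%, 38.9%, 40.6%, 28.3% and 14.6% were called in turn.

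With 1 library left out at a time (where a group is left with 1, it is assumed to vary like the others), 16 to 32 members were called in KO7, 28 to 34 in KO8, 26 to 30 for their mean, 23 to 32 for KO8 minus KO7, and 5 to 15 in the untreated TPM table. For the treated tables it was activin A with 2 to 7, SB431542 with 2 to 10, BMP4 with 0 to 4 and LDN193189 with 0 to 3. It was 12 to 16 in KO1, 7 to 14 in KO2, 1 to 2 for KO2 minus KO1, 18 to 21 and 22 to 25 for the table pairs in HMCES-KO and WT, 0 to 1 for their difference and 0 for the ligand contrasts. Under activin A the count was 2 without WT replicate 1 and 7 without either HMCES-KO library of LDN193189. Under SB431542 it was 3 without KO2, 3 without WT replicate 1, 2 without WT replicate 2 and 10 without either HMCES-KO library of LDN193189. Under BMP4 it was 1 without KO2 and 0 without either WT library.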
